A study of Mus musculus with 5 samples.

Results

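Ceruloplasmin (Cp), the copper-bearing ferroxidase that oxidises ferrous iron so that transferrin can carry it, was described together with 8 further genes of iron handling in cells of the mouse aortic arch. These were Fth1 and Ftl1, the heavy and light chains of the iron store ferritin; Slc40a1, the iron exporter ferroportin; Hmox1, haem oxygenase 1, which frees iron from haem; Tfrc, the transferrin receptor; Slc11a1 (NRAMP1) and Slc11a2 (DMT1), transporters that move iron across the membranes of phagosomes and endosomes; and Ncoa4, the receptor that carries ferritin to the lysosome. All 9 genes, of the 26189 in the count tables, were found. The list was drawn up with results of these same cells known, so the levels and pool differences below are descriptions, and no test supports them.

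The cells were live CD45-positive cells (CD45 is carried by blood-derived cells) sorted from digested aortic arches of female mice, whose labelled age is 12 weeks. Part of the arches were wild-type (C57BL/6J), and the rest were from the line C57BL/6N-Saa3tm1.1(KOMP)Vlcg/MbpMmucd (labelled Saa3-/-), in which Saa3 is targeted. Saa3 encodes serum amyloid A3, an acute-phase protein. Mice of both genotypes had received 1 injection of an adeno-associated virus vector and a Western diet for 18 weeks, given to bring on atherosclerosis. The labelled age is shorter than the diet, so it cannot be the age at sorting, which is not given in the sources used here. Each genotype was 1 pool under its own sample tag, so no spread between mice could be had, and the number of mice in a pool is not given in the sources used here. The substrain (C57BL/6J or C57BL/6N), the tag and the genotype cannot be told apart. 4 further samples of bone-marrow-derived macrophages were not analysed here.

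The pools held 833 and 823 cells after cells with over 25% mitochondrial molecules were left out, with a median of 6415 molecules per cell in the pool labelled wild-type and 4698 in the pool labelled Saa3-/-. No cell index was shared between the tables. Saa3 itself went against the label, with 1079 molecules (148 CPM, molecules per 1000000) in the pool labelled wild-type and 1268 (242 CPM) in the pool labelled Saa3-/-. This sum rests on 2 cells, which held 1124 of the 1268, and the cells outside the 2 highest held 697 molecules in the first pool and 144 in the second, an order that runs with the label. Every direction below is therefore between pools so labelled. A cell was called X-like when it scored highest for the fixed markers of type X and at least 3 of them were found, and 78 typed cells scored within 0.2 (mean z-score) for a second type. Fibroblast-like and smooth-muscle-like cells were present in spite of the CD45 sort, and at least 1 molecule of the CD45 gene Ptprc was found in 49.0% and 41.7% of such stromal cells, against 95.5% and 91.3% of macrophage-like cells. The 9 macrophage markers, by which the gate was drawn, summed to 14524 and 13212 CPM in macrophage-like cells. All 9 were also found in T-cell-like cells, at 656 and 589 CPM. All 8 fibroblast markers were found in macrophage-like cells too, at a summed 1327 and 1077 CPM. That sum was 1070 and 1054 CPM in T-cell-like cells and 36210 and 38818 CPM in fibroblast-like cells.

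Macrophages take up iron from haem and aged red cells, store it in ferritin and return it to plasma through ferroportin, with ceruloplasmin or its relative hephaestin oxidising the iron that leaves. When iron is scarce the iron regulatory proteins bind a hairpin, the iron-responsive element, in messenger RNAs of the system. Bound in a 5′ untranslated region the hairpin blocks translation, and bound in the 3′ untranslated region of the transferrin receptor it protects the RNA. In plaques iron comes in part from red cells that leak from small vessels, and iron-loaded macrophages are known there.

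The hairpins are shown because a count of RNA need not follow the protein in a gene that holds one in the 5′ untranslated region. The element searched was a C, 5 bases, the loop CAGTGN and 5 bases that pair with the first 5 (A-T, G-C or G-T), on the transcript strand of GENCODE gene models on GRCm38. Capitals mark the unpaired C and the loop. The elements of the 3 genes that hold one in the 5′ untranslated region were, 5′ to 3′:
Fth1: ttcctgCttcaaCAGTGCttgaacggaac
Ftl1: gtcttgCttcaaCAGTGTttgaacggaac
Slc40a1: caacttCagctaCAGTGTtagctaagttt
They lie at chr19:9982732-9982760 (plus strand), chr7:45459779-45459807 (minus strand) and chr1:45925465-45925493 (minus strand). The 3′ untranslated region of Tfrc, on the plus strand of chromosome 16, held 4 such elements between chr16:32631219 and chr16:32631738:
Tfrc element 1: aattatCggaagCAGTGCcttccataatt
Tfrc element 2: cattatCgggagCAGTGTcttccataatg
Tfrc element 3: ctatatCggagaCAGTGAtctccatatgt
Tfrc element 4: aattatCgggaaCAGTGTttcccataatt
The elements of Fth1 and Ftl1 had the same base at 26 of 29 positions, and that of Slc40a1 matched either at 13. The 4 elements of Tfrc matched each other at 18 to 25 positions. Of 21877 coding genes, 31 (0.142%) held the element in a 5′ and 129 (0.59%) in a 3′ untranslated region. The letters searched were not found in the untranslated regions of Cp, Hmox1, Slc11a1, Slc11a2 or Ncoa4. Slc11a2 is nevertheless known for an iron-responsive element in the 3′ untranslated region of 1 of its transcript forms, with an atypical stem that this strict pattern does not match.

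Across the 7 cell gates with at least 20 cells in each pool, 6 of the 9 genes had their highest level in macrophage-like cells in both pools: Fth1, Ftl1, Slc40a1, Hmox1, Slc11a2 and Ncoa4. Cp was highest in fibroblast-like cells, Slc11a1 in monocyte-like cells and Tfrc in B-cell-like cells. The share of all genes that are highest in macrophage-like cells was not computed, so the 6 of 9 describes these genes only. The first place of Slc40a1, Ncoa4, Slc11a1 and Tfrc was not clear of the next gate, since the 95% Poisson intervals overlapped in both pools. That of Fth1 was not clear of monocyte-like cells in the pool labelled wild-type (8026 and 7964 CPM). Without the 5 highest cells of each pool, Slc11a1 was highest in macrophage-like cells of both pools, and Slc40a1 no longer was. Intervals throughout cover counting error only, and levels are compared between cells for 1 gene at a time.

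**Figure D1:**
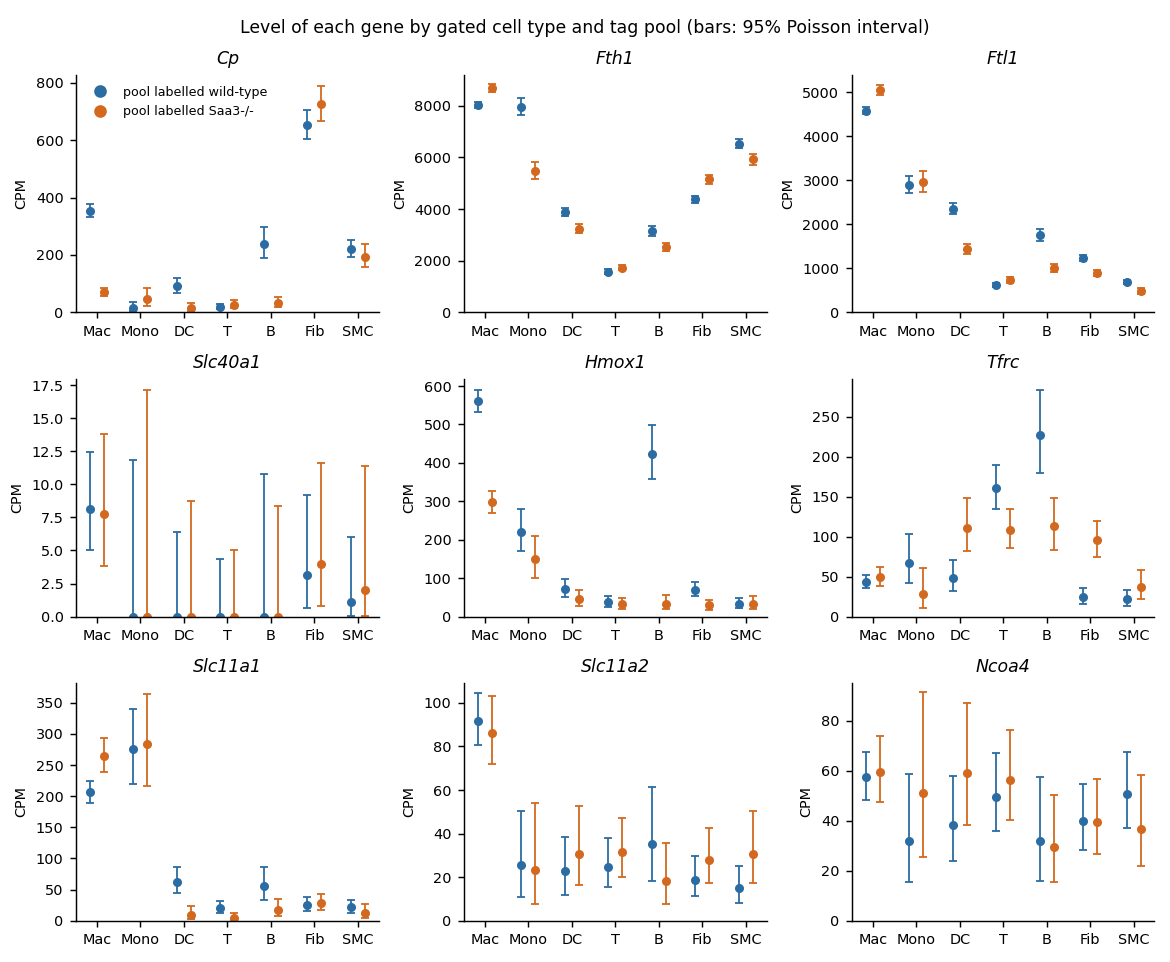
Level of each of the 9 genes in CPM (molecules per 1000000, linear axes) in 7 gates, macrophage-like (Mac), monocyte-like (Mono), dendritic-cell-like (DC), T-cell-like (T), B-cell-like (B), fibroblast-like (Fib) and smooth-muscle-like (SMC). Points are the summed level of 1 pool and bars its 95% Poisson interval, and Cp in macrophage-like cells stands at 355 CPM against 70.9 CPM, while both pools are near each other in fibroblast-like cells.

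Of the 8 members compared in macrophage-like cells, Cp had the widest gap between pools. Macrophage-like cells held 916 Cp molecules (355 CPM, interval 332 to 379) in 223 cells of the pool labelled wild-type and 101 (70.9 CPM, 57.8 to 86.2) in 173 cells of the pool labelled Saa3-/-. The log2 ratio was -2.32 (conditional exact 95% interval -2.63 to -2.03), a level 4.98 times lower. This contrast took part in choosing the gene, so the ratio is a description. Genes with at least 50 molecules over both pools were compared, and 68 of 7863 (0.865%) were lower by at least 2-fold and 72 (0.916%) higher, 140 in all (1.78%). With TMM scaling 51 were higher and 85 lower. Of the 8 members compared, 1 was lower by this rule (Cp) and 0 were higher. Cp had the ninth lowest ratio of all genes compared. Fibroblast-like cells gave 653 CPM (603 to 706, 624 molecules) and 726 CPM (667 to 790, 549 molecules), a log2 ratio of 0.15 (-0.01 to 0.32). Smooth-muscle-like cells gave 221 and 194 CPM. The lower level was thus not found in the gate with the highest Cp. In that gate 10 of 90 and 6 of 72 cells held 50.5% and 60.8% of the Cp molecules. With fewer than 3 macrophage markers found, fibroblast-like cells stood at 353 and 529 CPM, the others at 709 and 764 CPM. Of the members compared in smooth-muscle-like and T-cell-like cells (4 and 5), 0 were past 2-fold either way, beside 2.2% and 2.33% of all genes compared there.

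More cells carried the transcript in the pool labelled wild-type, and those that did carried more of it. At least 1 Cp molecule was found in 121 of 223 macrophage-like cells (54.3%, exact binomial interval 47.5 to 60.9) and in 51 of 173 (29.5%, 22.8 to 36.9). The median depth of these cells was 9440 and 6497 molecules. With each cell thinned to 2000 molecules, which left out 5 and 2 shallower cells, the shares were 30.7% and 13.5%. T-cell-like cells were taken as background, and whether they make Cp was not tested. Of them, 9.88% of 162 and 11.1% of 180 had a molecule, at a median depth of 4318 and 3908. After thinning the shares were 4.46% and 5.17%. At 18.9 and 27.4 CPM, that background was similar in both pools and below both macrophage levels.

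Single macrophage-like cells high in Cp lay almost wholly in 1 pool, on counts not thinned to equal depth. Among fibroblast-like cells, 19 and 14 held at least 10 molecules. At least 5 molecules were counted in 54 macrophage-like cells of the pool labelled wild-type (24.2%), and these held 86.1% of its Cp molecules. In the pool labelled Saa3-/- 4 cells (2.31%) reached 5 molecules. At least 10 molecules were seen in 31 cells against 1, and at least 20 in 12 cells against 0 of 173 (exact upper bound 2.11%). The highest cell of the pool labelled wild-type held 58 molecules and that of the pool labelled Saa3-/- 16. The 5 highest cells held 22.9% and 37.6% of the Cp molecules, and without them the levels were 285 and 45.7 CPM, so a few cells did not carry the difference.

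Within macrophage-like cells, Cp was highest in the resident state, defined by Lyve1, Folr2, F13a1, Cbr2, Pf4, Gas6 and Timd4, genes of long-lived vessel macrophages. Resident cells gave 675 CPM (625 to 727, 86 cells) and 169 CPM (126 to 222, 41 cells), with a log2 ratio of -1.98 (-2.44 to -1.59). The first of these was close to the 653 CPM of fibroblast-like cells, and 68 of 86 resident cells (79.1%) held a molecule. In the inflammatory state (Il1b, Cxcl2, Tnf, Nlrp3, Ccl3, Ccl4) the levels were 206 and 52.3 CPM, with a ratio of -1.96 (-2.63 to -1.38). Lipid-laden cells (Trem2, Gpnmb, Spp1, Cd9, Fabp5, Lpl, Mmp12) were low in both pools, 62.0 and 38.5 CPM on 38 and 22 molecules, with a ratio of -0.68 (-1.52 to 0.10). Beside these ratios, 88 of 4299 genes (2.05%) were lower by 2-fold in resident, 84 of 4410 (1.90%) in inflammatory and 92 of 4075 (2.26%) in lipid-laden cells. The make-up of the gate moved with the level: resident cells were 38.6% of macrophage-like cells in the pool labelled wild-type and 23.7% in the other, and lipid-laden cells 22.0% and 30.6%. With the states weighed by their shares in the pool labelled wild-type, Cp stood at 353 and 93.1 CPM, a log2 ratio of -1.92.

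**Figure D2:**
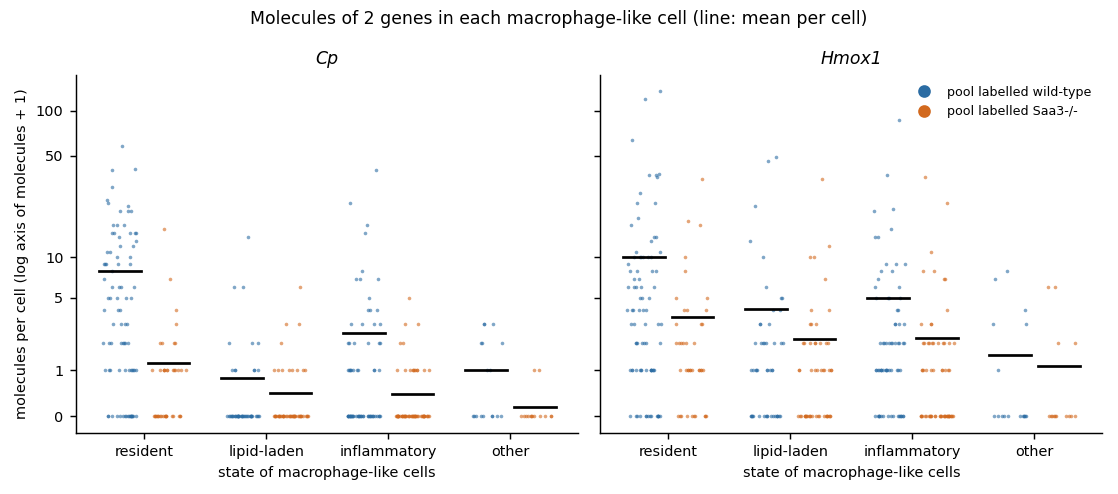
Molecules of Cp and of Hmox1 in each macrophage-like cell (log axis of molecules + 1), by state and pool. Each point is 1 cell, moved sideways at random, and the black line is the mean per cell. Cells with 10 or more Cp molecules number 31 in the pool labelled wild-type and 1 in the pool labelled Saa3-/-, and 26 of the 31 are resident.

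Since fibroblasts are rich in Cp, the level was set beside fibroblast markers. Among macrophage-like cells with at most 2 of the 8 fibroblast markers found, Cp stood at 299 CPM (194 to 441, 25 molecules in 24 cells) and 43.8 CPM (16.1 to 95.4, 6 molecules in 36 cells). Cells with at least 3 gave 357 and 73.8 CPM. With at most 1 marker found, 2 molecules were left in each pool, at 78.1 CPM (9.45 to 282, 9 cells) and 38.8 CPM (4.69 to 140, 14 cells), with overlapping intervals. The part of fibroblast RNA in the difference was not tested. No stretch of 50 bases of the Cp transcripts occurs in another gene. The gene (chromosome 3, 19957054 to 20009145, plus strand, GRCm38) overlaps Hps3 on the other strand, and whether molecules were counted by strand is not stated.

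Cp was also lower by 2-fold in dendritic-cell-like and B-cell-like cells of the pool labelled Saa3-/-, on few cells. Dendritic-cell-like cells held 53 molecules (92.2 CPM) and 6 (14.2 CPM), and 46 of the 53 lay in 5 cells. B-cell-like cells held 82 (239 CPM) and 14 (31.6 CPM), and 77 of the 82 lay in 5 cells. Macrophage markers moved with both values: their sum was 2445 and 1349 CPM in dendritic-cell-like and 4184 and 1394 CPM in B-cell-like cells. In the 35 B-cell-like cells of the pool labelled wild-type with fewer than 3 macrophage markers found, 1 Cp molecule was left, against 81 in the other 20. In these gates 116 of 3539 genes (3.28%) and 126 of 2997 (4.20%) were lower by 2-fold.

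Hmox1 showed the next widest gap. It was counted 1448 times in macrophage-like cells of the pool labelled wild-type (561 CPM, 532 to 591) and 424 times in the other (298 CPM, 270 to 327). The log2 ratio of -0.91 (-1.07 to -0.76) did not reach the 2-fold limit. By Leiden clusters in place of the marker gate it was -1.03, and after thinning -1.03, which would pass. A molecule was found in 72.6% and 56.1% of cells, against 17.3% and 11.1% of T-cell-like cells. After thinning the shares were 33.9% and 25.1% against 5.73% and 6.90%. Hmox1 was uneven: 17 cells with at least 20 molecules held 57.0% of the molecules of the pool labelled wild-type, and 4 such cells held 30.7% of those of the other. Its highest cells held 135 and 36 molecules. Resident cells were highest again, at 857 and 474 CPM, then inflammatory cells at 412 and 296 CPM and lipid-laden cells at 327 and 206 CPM. In all 3 states the level was lower in the pool labelled Saa3-/-, with ratios of -0.85, -0.47 and -0.66, none past 2-fold.

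Over all kept cells Hmox1 was the member past 2-fold, at 264 and 111 CPM, a ratio of -1.25, beside 93 of 11980 genes (0.776%) lower by that much. Cp there was 270 and 160 CPM, a ratio of -0.75. These sums rest in part on how many cells each gate held, and fewer cells of a type and less RNA per cell cannot be told apart in them. Outside macrophage-like cells Hmox1 had 477 and 158 molecules, and 145 of the 477 lay in B-cell-like cells, where 5 cells held 134. In B-cell-like cells with fewer than 3 macrophage markers 4 and 5 molecules remained. Fibroblast-like cells held 67 and 22 molecules (70.1 and 29.1 CPM), a ratio of -1.25, beside 102 of 5550 genes (1.84%) lower by 2-fold. There the summed macrophage markers were 1137 and 688 CPM. In fibroblast-like cells with fewer than 3 macrophage markers found, Hmox1 stood at 33.3 and 33.1 CPM on 5 and 4 molecules, and in those with 3 or more at 77.0 and 28.4 CPM. With intervals of 10.8 to 77.7 and 9.01 to 84.7 CPM, the cells with fewer markers cannot show whether they held a gap. The part of macrophage RNA in the gap was not tested.

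Cp was also read in macrophage-like cells with and without Hmox1. After thinning, Cp was found in 27.1% of the 144 cells without Hmox1 and in 37.8% of the 74 with it in the pool labelled wild-type, and in 10.2% of 128 and 23.3% of 43 in the other. These intervals overlapped in both pools. Of the cells with at least 3 Hmox1 molecules, Cp was found in 8 of 20 (40%) and 5 of 10 (50%, 18.7 to 81.3). The last interval lay above that of the cells without Hmox1 in the same pool (5.52 to 16.7), and no such gap was seen in the pool labelled wild-type.

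Ferritin was the most counted of the 9. Fth1 stood at 8026 and 8682 CPM in macrophage-like cells and Ftl1 at 4587 and 5049 CPM, together 1.26% and 1.37% of all their molecules. Every macrophage-like cell of both pools held both chains, with a median of 75 and 47 Fth1 molecules per cell and 38 and 27 of Ftl1. The log2 ratios were 0.11 (0.08 to 0.15) for Fth1 and 0.14 (0.10 to 0.18) for Ftl1, 1.08-fold and 1.10-fold, and both took the other sign, -0.01 and -0.03, once states were weighed alike. The states differed: resident cells were lower in the pool labelled Saa3-/- for both chains (Fth1 7207 and 5740 CPM, Ftl1 5057 and 3796 CPM), and lipid-laden cells were higher for Ftl1 (4827 and 6988 CPM). 5 lipid-laden cells held 35.8% of that last sum, and once the 5 highest cells per pool were left out it was 4561 and 5653 CPM.

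The share of Fth1 among ferritin molecules was higher in the stromal than in the other gates of the 7. It was 78.0% and 85.1% in fibroblast-like cells and 90.5% and 92.5% in smooth-muscle-like cells. Macrophage-like cells gave 63.6% and 63.2% and T-cell-like cells 71.9% and 70.2%, with overlapping intervals between pools. Both stromal gates were higher in the pool labelled Saa3-/- beyond counting error. So were dendritic-cell-like (62.3% and 69.2%) and B-cell-like cells (64.2% and 71.5%). Monocyte-like cells ran the other way (73.3% and 65.0%), also beyond counting error. Of the Fth1 molecules in monocyte-like cells, 48.7% and 41.4% came from the 5 highest cells per pool. For B-cell-like cells that part was 64.85% and 29.0%. Whether the share moves without such cells was not tested. With fewer than 3 macrophage markers found, Ftl1 stood at 979 and 1050 CPM in fibroblast-like cells. It was 478.5 and 450 CPM in such smooth-muscle-like and 574 and 762 CPM in such B-cell-like cells. With 3 or more found, the 3 gates had 1282 and 873, 782 and 504, and 2425 and 1406 CPM. Only 5 dendritic-cell-like cells per pool had fewer than 3. The part of macrophage RNA in these shares was not tested. Among macrophage states the share was 58.8% and 60.2% in resident, 65.6% and 57.3% in lipid-laden and 66.7% and 71.7% in inflammatory cells. Heavy chains oxidise iron and light chains help to lay it down as a mineral core, and light-chain-rich ferritin is known from cells that store iron. Ftl1 cannot be cleanly counted, since 50.9% of its 50-base stretches occur in other genes, mostly in the copy Ftl1-ps1. Ftl1-ps1 took 17.3% to 22.4% of the Ftl1 and Ftl1-ps1 molecules in the 7 gates, 21.2% and 22.4% in macrophage-like cells, so a near-constant part was assigned to it. With the copies summed, the ratio in macrophage-like cells was 0.16 (0.12 to 0.20) and the Fth1 share 58.0% and 57.2%. Fth1 shared 1.59% of its stretches with other genes.

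**Figure D3:**
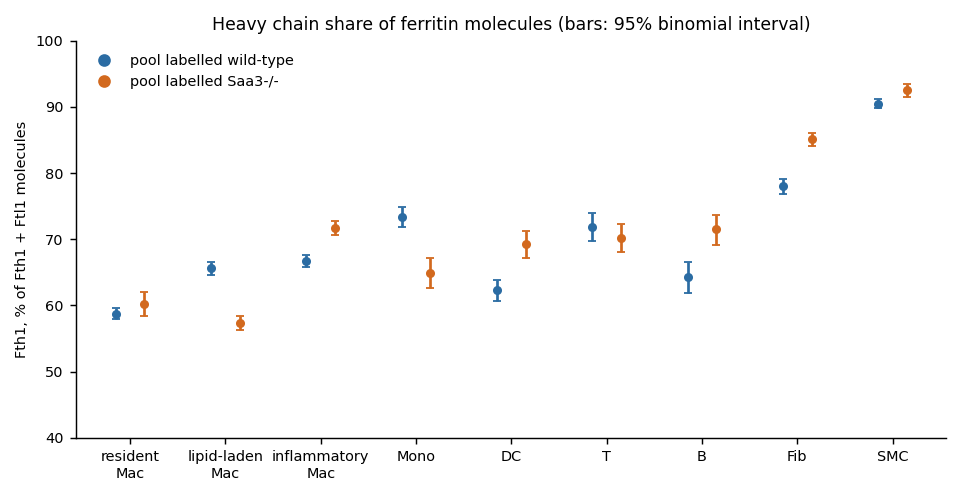
Fth1 as a percentage of Fth1 and Ftl1 molecules, by macrophage state and by gate, with exact 95% binomial intervals (axis from 40 to 100%). Resident macrophage-like cells lie near 59 to 60% in both pools and smooth-muscle-like cells above 90%.

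The RNA of the exporter ferroportin was near the limit of detection. Slc40a1 gave 21 molecules in 13 of 223 macrophage-like cells and 11 in 5 of 173, 8.13 and 7.72 CPM, too few for the comparison. In the pool labelled wild-type 15 of the 21 were in resident cells. In the pool labelled Saa3-/- all 11 were in lipid-laden cells, and 0 were counted in 41 resident cells, which allows up to 12.2 CPM against the 14.8 CPM (8.28 to 24.4) of the other pool. T-cell-like, B-cell-like, dendritic-cell-like and monocyte-like cells held 0 molecules in both pools, with upper bounds of 4.36 to 17.1 CPM.

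The metal transporters differed in where they were found. Slc11a1 stood at 207 and 265 CPM in macrophage-like and at 275 and 283 CPM in monocyte-like cells, with overlapping intervals in the latter, and at 20.1 and 4.11 CPM in T-cell-like cells. Dendritic-cell-like cells had 62.6 and 9.46 CPM of it. Its ratio in macrophage-like cells was 0.36 (0.16 to 0.55). By state it was 0.82 (0.47 to 1.18) in lipid-laden and 0.52 (0.17 to 0.85) in inflammatory cells and -0.54 (-1.02 to -0.11) in resident cells, so the pool that was higher differed by state, which was not tested. Slc11a2 stood out in macrophage-like cells alone of the 7 gates, at 91.8 and 86.4 CPM against at most 35.0 CPM in the other 6. Monocyte-like cells (25.6 and 23.2 CPM) were no higher in it than T-cell-like cells (24.8 and 31.5 CPM). In macrophage-like cells it came with a ratio of -0.09 (-0.41 to 0.23). Slc11a2 overlaps Gm5475 on the other strand.

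The RNA of the transferrin receptor followed another order. Tfrc was highest in B-cell-like cells (228 and 113 CPM), ahead of T-cell-like cells (161 and 108 CPM) with overlapping intervals, and macrophage-like cells had 43.4 and 49.1 CPM, a ratio of 0.18 (-0.27 to 0.62). Dividing cells need iron for DNA synthesis, and Tfrc is known to be raised in them. Over all kept cells, those with at least 3 of 7 cycling markers had 152 CPM against 51.2 in the rest of the pool labelled wild-type, and 126 against 77.1 CPM in the pool labelled Saa3-/-, but these sums mix cell types. Within macrophage-like cells the cycling cells were not higher (31.5 against 44.9 CPM, and 42.1 against 49.6 CPM), nor within dendritic-cell-like cells (45.2 against 50 CPM, and 79.6 against 118 CPM), with overlapping intervals. In T-cell-like cells of the pool labelled wild-type, 8 cycling cells held 65 of 136 molecules, 31 of them in 1 cell, and the remaining 154 cells had 104 CPM, close to the 106 CPM of the same cells in the other pool. Between pools Tfrc was higher by 2-fold in dendritic-cell-like cells (48.7 and 111 CPM, ratio 1.18) and in fibroblast-like cells (24.1 and 95.3 CPM, ratio 1.96). The second value rests on 1 cell with 47 of the 72 molecules, and once the 5 highest cells per pool were left out the levels were 11.1 and 20.3 CPM. In B-cell-like cells Tfrc was lower by 2-fold in the pool labelled Saa3-/- (ratio -1.01), beside 4.20% of genes. There 46 of the 78 molecules of the pool labelled wild-type lay in 5 cells, and without the 5 highest cells per pool the levels were 135 and 81.4 CPM, short of 2-fold. Genes higher by 2-fold made up 1.44% of those compared in dendritic-cell-like cells and 2.40% in fibroblast-like cells.

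Ncoa4 was the flattest of the 9. Its levels ran from 32.0 to 57.3 CPM over the 7 gates of the pool labelled wild-type and from 29.4 to 59.7 CPM in the other, with neighbouring intervals overlapping throughout. The ratio in macrophage-like cells was 0.06 (-0.34 to 0.45). Lipid-laden cells were highest in both pools, at 86.5 and 75.2 CPM. 17.9% of its 50-base stretches occur in Gm6768, so its counts are uncertain.

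**Figure D4:**
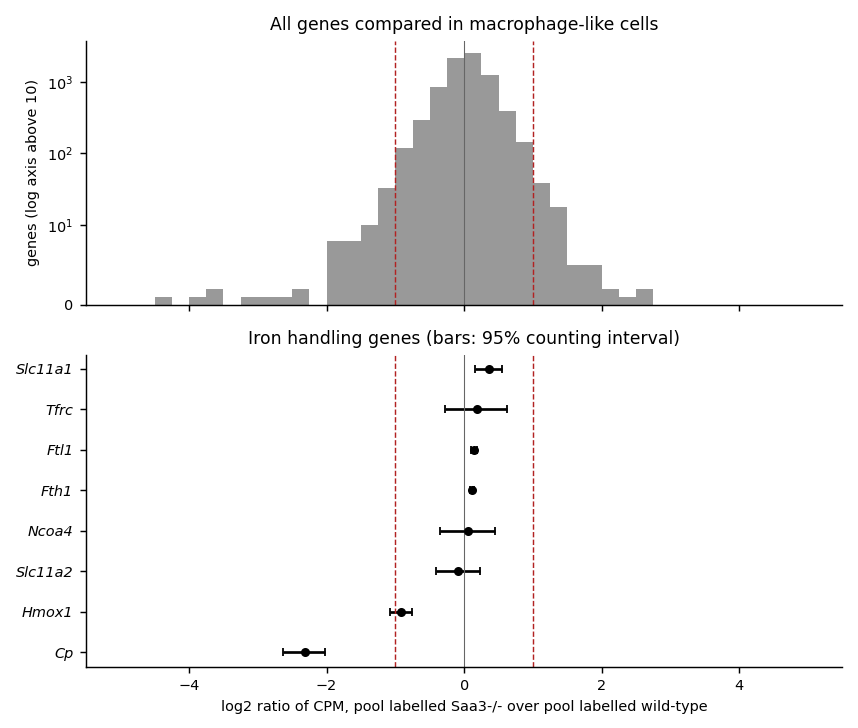
Above, the log2 ratios of CPM (pool labelled Saa3-/- over pool labelled wild-type) of the 7863 genes compared in macrophage-like cells, with a count axis that is logarithmic above 10. Below, the 8 members compared with conditional exact 95% intervals, where Cp lies at -2.32, Hmox1 at -0.91 and the other 6 between -0.09 and 0.36. Dashed lines mark 2-fold.

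Over the 8 members compared in macrophage-like cells the median log2 ratio was 0.09, against 0.03 over all genes, with 3 of the 8 below 0 beside 44.5% of all genes. The members went both ways, and their counts differed by gate. In resident cells 7 of 8 were below 0, beside 44.9% of genes, with a median of -0.48. All 5 compared in B-cell-like cells were below 0, beside 45.4% of genes, with a median of -1.01. Of these, 3 (Cp, Hmox1 and Tfrc) were lower by 2-fold, beside 4.20% of genes. In the pool labelled wild-type, 81 Cp and 141 Hmox1 molecules lay in the 20 B-cell-like cells with 3 or more macrophage markers found. Tfrc was short of 2-fold there without the 5 highest cells per pool. Over all kept cells 6 of 8 were below 0, beside 40.1% of genes. A wider list of 61 iron, haem and oxidant-defence genes, 59 of them found, was read the same way. In macrophage-like cells 41 could be compared, and 0 were higher and 0 lower by 2-fold, with a median of 0.00. At the 1.78% of all genes past 2-fold there, a count of 0 among 41 is near the background share. The 41 were plasma carriers and their receptors (4 genes), uptake and reduction (3), storage and chaperones (4), oxidases and export control (2), iron sensing (3), haem handling (10), mitochondrial iron (6), targets of NRF2 other than Hmox1 (7) and lipid peroxide defence (2). Hephaestin (Heph), the other ferroxidase, gave 32.9 and 30.2 CPM.

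Of the wider list, 6 genes had at least 4 times the level of T-cell-like cells in macrophage-like cells of both pools. They included Trf, the plasma iron carrier transferrin (277 and 298 CPM), and Cd163, the receptor for haptoglobin-bound haemoglobin (225 and 269 CPM). Lrp1, which takes up haemopexin-bound haem (226 and 258 CPM), and Hfe, which acts on hepcidin and the transferrin receptor (110 and 102 CPM), were also among them. The last were Blvrb, a biliverdin reductase (115 and 100 CPM), and Nfe2l2, the transcription factor NRF2 of the oxidant response (480 and 354 CPM). The share of all genes at this limit was not computed, so the count describes the list only. T-cell-like cells held 11 and 2 Cd163 molecules, and the second was replaced by a floor of 3. Nfe2l2, which drives Hmox1, had a ratio of -0.44 (-0.59 to -0.29), and Bach1, a repressor of Hmox1, one of -0.36 (-0.55 to -0.18), both short of 2-fold. Of the other NRF2 targets 7 could be compared, with 0 past 2-fold. Gclm, which helps to make glutathione, was at 0.46 (0.14 to 0.77), Srxn1 at 0.55 (0.05 to 1.05) and Prdx1 at 0.14 (0.02 to 0.25). The intervals of Slc7a11 (0.42), G6pdx (0.08), Txnrd1 (0.00) and Gclc (-0.03) held 0, and Nqo1, at 10 and 2 molecules, had too few to compare.

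In fibroblast-like cells 32 of the wider list were compared, and 2 were higher by 2-fold in the pool labelled Saa3-/-: Lcn2, lipocalin 2, which binds bacterial iron carriers (265 and 729 CPM, ratio 1.46, 1.24 to 1.68), and Hp, haptoglobin, which binds haemoglobin (73.3 and 167 CPM, ratio 1.18, 0.75 to 1.63). Of the genes compared there 2.40% were higher by that much. Besides Cp and these, Lrp1 (846 and 822 CPM), the ferrireductases Steap3 (184 and 204 CPM) and Steap4 (190 and 102 CPM), Hfe (53.4 and 41.0 CPM) and Blvrb (54.4 and 31.8 CPM) had at least 4 times the level of T-cell-like cells. Here too the share of all genes at 4 times was not computed, and T-cell-like cells held only 4 and 3 Steap4 molecules. Steap4 had a ratio of -0.90 (-1.31 to -0.51).

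The genes whose levels ran most like those of Cp over 16 points (each gate with at least 20 cells in a pool) included Sorbs3, Timp2, Gas6 and Pon3, with Pearson r of log2 (CPM + 10) from 0.89 to 0.91. Gas6 is 1 of the markers of the resident state. For Hmox1 they were Cndp2, Aoah, Hk3, Fcgr3 and Ccl4, at 0.90 to 0.93, and Ccl4 is a marker of the inflammatory state. For Slc40a1 they were Ccdc152, Slc27a1, Itsn1, Ap1s1 and Dhrs3, at 0.82 to 0.89, on 43 Slc40a1 molecules in all. Among the 9 genes Hmox1 ran with Ftl1 (0.86) and Slc11a1 (0.83), and Cp with neither ferritin chain (0.48 for Fth1 and 0.05 for Ftl1). Points of 1 pool share their library and each pair of points of 1 gate its markers, so these values describe the pattern only.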

How the data were processed

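Reads were processed by the authors with the BD Rhapsody WTA Analysis Pipeline (1.11.1), GRCm38 and GENCODE 19, intronic reads included, per the file headers. Each sample tag has a deposited table of whole, unnormalized molecule counts for every gene and cell. The submitters' processing notes also name mm10, R 4.3.1 and Seurat 4.3.0. Only the tables' names tie a tag to a genotype. A deposited table of tag calls lists 2401 putative cells, 647 undetermined and 11 multiplets, which are outside the tables used here. No further doublets were removed.

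Cells with at most 25% of molecules from mt- genes were kept (56 and 31 removed). Molecules were summed over the cells of a gate and pool and divided by all their molecules (CPM). A cell took the gate with the highest mean z-score of its fixed markers. Log2 ratios used a pseudocount of 0.5 molecule and genes with at least 50 molecules, in the 6 gates and 3 macrophage states with at least 40 cells in each pool. Intervals are exact Poisson, exact binomial (Clopper-Pearson) or conditional exact, all at 95%, computed with Python 3.11.15, numpy 2.4.6 and scipy 1.17.1, and they cover counting error only. With 1 pool per genotype no p-value was computed, and cells were not used as replicates. The ratio step was tested on simulated data.

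Named genes were the 9 members, the genes of a wider iron list past 2-fold or at least 4 times as high as in T-cell-like cells, and the 5 most alike genes, of which 1 is not reported here. Heph, Bach1 and the NRF2 targets were named after their values were seen. The members, markers and lists were chosen with earlier results of these data known. Alternatives changed the cell filter, doublet removal, typing (scanpy 1.11.5, leidenalg 0.10.2), scaling, depth, limits and the highest cells. Of these, 3 were added after seeing the data.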

Additional observations from a re-analysis of the deposited data

Results flagged for a closer look

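Tfrc differed in direction between cell types. Its log2 ratio (pool labelled Saa3-/- over pool labelled wild-type) was 1.18 in dendritic-cell-like and 1.96 in fibroblast-like cells and -1.01 in B-cell-like cells. With 1 pool per genotype the difference between cell types was not tested. The fibroblast-like value rests on 1 cell with 47 of 72 molecules. In B-cell-like cells 46 of the 78 molecules of the pool labelled wild-type lay in 5 cells, without the 5 highest cells per pool the levels were 135 and 81.4 CPM, and cells that were not cycling had 193.5 and 113 CPM, both short of 2-fold. Genes lower by 2-fold made up 4.20% of those compared there. In B-cell-like cells with fewer than 3 macrophage markers found, Tfrc stood at 243 and 112 CPM.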

How the results depend on the processing

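Of the 16 alternatives that gave a Cp ratio in macrophage-like cells, those that changed only the molecule limit or the fold limit could not alter it. Under the rest the Cp ratio stayed at least 2-fold, from -2.63 to -1.92. The first of these was without the 5 highest cells of each pool. The second weighed states by their shares in the pool labelled wild-type and was added after seeing the data. Removing cells with at least 3 markers of a second lineage took 667 and 611 cells, left 19 and 31 macrophage-like cells, and brought Cp under 50 molecules, so that setting gave no Cp ratio and 0 members past 2-fold. Members past 2-fold numbered 2 (Cp and Hmox1) with Leiden clusters, at a limit of 1.5-fold and after thinning. Hmox1 ranged from -1.03 to -0.68.

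Genes past 2-fold in macrophage-like cells numbered 140. They were 63 with at least 100 molecules, 498 with at least 20, 776 at 1.5-fold, 14 at a log2 ratio of 2, 49 of 520 with second lineages removed, 234 with each cell weighing the same, 42 of 2843 after thinning and 281 without the 5 highest cells per gene, where 221 were lower and 60 higher. Settings with fewer molecules or genes change the count by construction, and for the rest the cause was not tested. Members highest in macrophage-like cells numbered 4 to 6. Scrublet called 13 and 2 cells, and removing them moved no result past 1.5 times.

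No paired analysis was possible because each genotype is 1 pool with no replicate number. Depth limits Slc40a1 most, with 43 molecules in all kept cells.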
